A study of Mus musculus with 6 samples.

Results

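Prostaglandin E2 synthesis and reception were followed through 9 genes of 25001 loci: Pla2g4a, Ptgs1, Ptgs2, Ptges, Ptges2, Ptges3, Hpgd, Ptger2 and Ptger4. They were chosen by name for their place in the pathway, with earlier results of these data known, and each symbol was held by 1 locus. RNA came from 427.1.86 (427) cells, a mouse thymoma line of wild type genotype, sequenced in 6 libraries with 1 library for each condition. The library labelled CONT came from cells stably carrying the empty pSUPER vector, kept without serum for 2 h and then given DMSO for 2 h, and the library labelled CONT_PMA from the same cells given 1 µM PMA for 2 h in its place. PMA is a phorbol ester that activates protein kinase C and induces shedding of epithin/PRSS14, a membrane serine protease encoded by St14. The libraries labelled KD and KD_PMA came from cells with a knockdown of SPPL2b, an intramembrane protease, under the same serum withdrawal and the same DMSO or PMA treatment. The libraries labelled KD_GFP and KD_GFP_N55 came from knockdown cells transfected with a GFP vector alone or with GFP and the FLAG-tagged intracellular domain of epithin (EICD), and sorted for GFP. The labels give an siRNA for all 4 knockdown libraries, whereas the methods of the study describe single-cell clones with a stable shRNA in pSUPER. Line and clone are thus confounded, and their parts in a difference between CONT and KD libraries cannot be told apart.

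Each value below is thus from 1 library. No difference has a replicate check, no p-value was computed, and the intervals given are 95% intervals for counting error alone. They rest on upper estimates of the fragments per gene, and so may be too narrow. Levels are FPKM, fragments per kilobase of transcript scaled to the size of the library, so that they can be set side by side between genes. In units of 1000000, the depth estimated from the lowest values was 24.4 to 29.2 fragments per library. In the same units the FPKM sum of all loci was 12.5 and 14.8 in the libraries labelled CONT and CONT_PMA, and between 6.24 and 7.08 in the other 4. Sppl2b, the targeted gene, went against the knockdown label: its FPKM was 9.90 in CONT and 6.86 in CONT_PMA, against 13.4 in KD, 9.37 in KD_PMA, 11.4 in KD_GFP and 13.2 in KD_GFP_N55. The Sppl2b locus shares 2204 bases with Lsm7, whose reads in the shared bases may be counted with it. Lsm7 was at 69.5 in CONT, 74.3 in CONT_PMA, 33.6 in KD, 60.8 in KD_PMA, 64.9 in KD_GFP and 41.4 in KD_GFP_N55. It was lowest in KD, where Sppl2b was highest, and highest in CONT_PMA, where Sppl2b was lowest. The share of Lsm7 reads in the Sppl2b value was not tested, so this FPKM is a limited check of the knockdown. The knockdown libraries are for that reason called by their labels throughout, and directions drawn from them rest on those labels. St14, whose coding sequence holds the transfected domain, was at 614.5 in KD_GFP_N55 and between 69.6 and 105.4 in the other 5 libraries. Of 8 epithelial markers, 7 were at an FPKM of 1 or more in every library, Foxn1 and Krt5 of thymic epithelium among them, while Krt19 was below 1. Their summed level ran from 6328 in KD_PMA to 15032 in KD_GFP. Of 7 T lineage markers none reached 1, their sum was 0.0436 to 0.282, and 4 of them, Cd3e, Cd3d, Cd4 and Cd2, were at 0 in every library. Among 10 markers of other blood cells only Csf1r reached 1 (sum 2.59 to 7.43), and none of 5 markers of stroma and endothelium did (sum 0.220 to 0.604).

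Prostaglandins are made in steps. Cytosolic phospholipase A2 (Pla2g4a) frees arachidonic acid from membranes, the cyclooxygenases COX-1 (Ptgs1) and COX-2 (Ptgs2) turn it into prostaglandin H2, and terminal synthases (Ptges, Ptges2, Ptges3) make prostaglandin E2 from that. The product acts on G protein-coupled receptors, of which EP2 (Ptger2) and EP4 (Ptger4) raise cAMP, and 15-hydroxyprostaglandin dehydrogenase (Hpgd) inactivates it. COX-1 is known as the constitutive form, and COX-2 as the form induced by growth factors, cytokines and phorbol esters in many epithelial cells.

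Ptgs2 was the member past 2-fold with PMA, and its start is therefore shown. RefSeq promoter sequences (250 bases before to 50 bases after a start, GRCm38.p6) were found for all 9 members. Both strands were searched. The letters were TGANTCA for AP-1 and TGACGTCA for the cAMP response element (CRE), whose core TGACG was searched as well. The E-box was CACGTG and the TATA box TATAAA. For Egr factors the letters were GCGNGGGCG. For NF-kappaB they were GGGNNTTCC. Ptgs2 held a CRE core, read on the minus strand from base 14 after the start, and an E-box from base 17, which overlap by 2 bases. The E-box was also in Ptges2 and the CRE core in Ptges3, both shown for comparison, and the capitals mark the matches. All 3 stretches are on the plus strand.

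Ptgs2, chr1:150100033-150100062: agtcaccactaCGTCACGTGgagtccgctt
Ptges2, chr2:32395801-32395830: ccatttccgcgaCACGTGgtttccaaggcc
Ptges3, chr10:128058980-128059009: gggcattttgctgCGTCAccagccgccgcc

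An E-box stood in 7.15% and a CRE core in 20.8% of 32851 promoters of this length, so that neither is rare. TATAAA was matched in Pla2g4a and Hpgd, and in 13.6% of all promoters. The AP-1, CRE, Egr and NF-kappaB letters, present in 7.81%, 1.79%, 5.55% and 5.82% of promoters, were in none of the members' windows, which says only that these letters are not there. The Ptgs2 locus in the files begins 379 bases before the RefSeq start. A match is a description of the letters and not a bound site.

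Each comparison of 2 libraries took loci that reached an FPKM of 1 in either of them, and 6 of the 9 members did so in each comparison. Ptges remained under 1 in every library, and Hpgd and Ptger2 were listed at 0 in all 6. Ptges3, Ptgs2 and Ptgs1 had the highest mean FPKM over the 6 libraries, at 194.9, 150.0 and 124.7. Ptges2 followed at 21.9, Pla2g4a at 11.6, Ptger4 at 4.01 and Ptges at 0.590. The ranges of Ptges3, Ptgs2 and Ptgs1 overlapped, and so did the lowest value of Pla2g4a and the highest of Ptger4, whereas the lowest value of Ptges2 was above the highest of Pla2g4a. Because these are bulk libraries, fewer cells expressing a gene and less RNA per cell cannot be told apart.

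**Figure D1:**
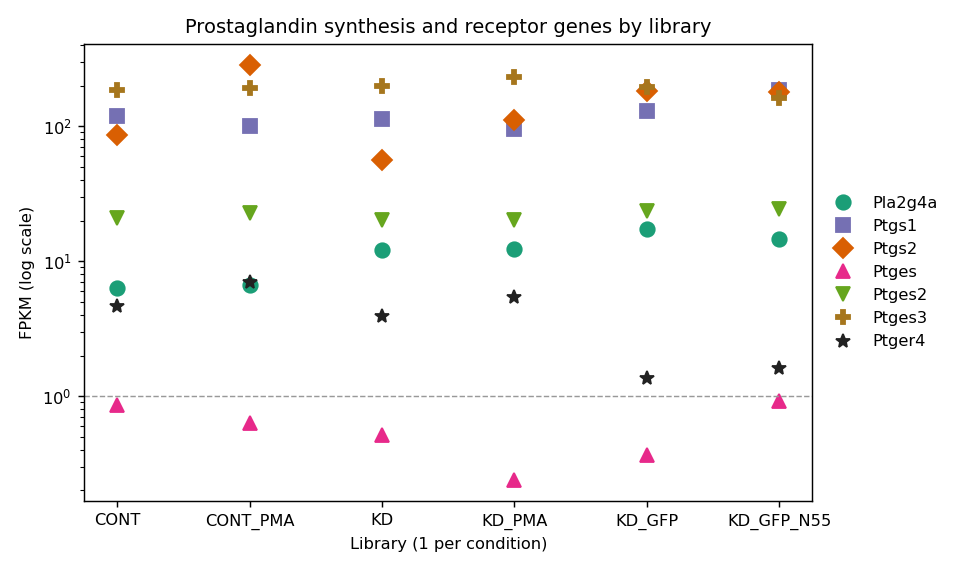
FPKM (log axis) of the 7 members with a value above 0 in the 6 libraries, 1 point per gene and library, with a dashed line at an FPKM of 1. Ptgs2 moves between 56.6 and 285.8 and Ptger4 between 1.36 and 7.06, while Ptges2 stays between 20.0 and 24.3, and Hpgd and Ptger2, listed at 0, cannot be drawn on this axis.

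Ptgs2 (chromosome 1, 150099652 to 150108227, plus strand, GRCm38) had the highest value of any member in any library. Its FPKM was 86.5 in CONT, 285.8 in CONT_PMA, 56.6 in KD, 111.3 in KD_PMA, 181.1 in KD_GFP and 178.6 in KD_GFP_N55. Both PMA libraries were thus above their DMSO partner, and both transfected libraries were above KD and KD_PMA.

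With PMA in 427 cells Ptgs2 was 3.30-fold higher, a log2 ratio of 1.72 (1.69 to 1.76), taken after 0.01 was added to both FPKM values. It was the 1 member of 6 past 2-fold, where 9.44% of 10981 loci were. Only 199 of those loci had a higher ratio. The median log2 ratio of loci at an FPKM of 1 or more in both libraries was -0.11, and relative to it Ptgs2 stood at 1.83.

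In the library labelled KD_PMA Ptgs2 was 1.96-fold above KD, a log2 ratio of 0.97 (0.93 to 1.02), so that 0 of 6 members passed 2-fold where 10.2% of loci did. Here the median of loci at 1 or more in both was -0.14, and relative to it Ptgs2 stood at 1.11, past 2-fold. Whether Ptgs2 counts as past 2-fold in this line thus depends on the scaling. The same centring turned the split of all loci past 2-fold from 421 higher and 703 lower to 541 higher and 495 lower. The difference of the log2 ratios with PMA, KD-labelled minus 427 cells, was -0.75 for Ptgs2, and with 1 library each it could not be tested.

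Between the lines, Ptgs2 was lower in the library labelled KD than in CONT, with a log2 ratio of -0.61 (-0.66 to -0.57). With DMSO 0 of 6 members passed 2-fold, where 7.05% of loci did. With PMA the log2 ratio of Ptgs2 was -1.36 (-1.39 to -1.33), and Ptgs2 was the 1 member of 6 past 2-fold where 5.83% of loci were. With each library scaled to an FPKM sum of 1000000 the ratio with DMSO turned to 0.36 and that with PMA was -0.11. This scaling moved the median of all loci to 1.01 and 1.26, and Ptgs2 was below both medians. The split of all loci past 2-fold was then 4427 higher and 26 lower in place of 434 and 347 with DMSO, and 6829 and 19 in place of 278 and 354 with PMA, among fewer loci at an FPKM of 1. These comparisons share libraries with those of PMA, and so are not independent of them.

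With EICD Ptgs2 was at nearly the level of the GFP control, with a log2 ratio of -0.02 (-0.05 to 0.01). None of 6 members passed 2-fold, where 4.76% of loci did. Between KD_GFP and KD Ptgs2 was 3.20-fold higher in the former, a log2 ratio of 1.68 (1.64 to 1.72). Ptgs2 and Ptger4 were the 2 members of 6 past 2-fold there, in opposite directions, where 9.15% of loci passed. Transfection, sorting, time in culture and serum withdrawal differ together between these libraries and cannot be told apart. The comparison shares the KD_GFP library with that of EICD. With the sum scaling, which also leaves fewer loci at an FPKM of 1 (8544 in place of 11000 with EICD), the split of all loci past 2-fold was 109 higher and 57 lower in place of 432 and 92 with EICD, and 227 and 185 in place of 444 and 569 between KD_GFP and KD. A minimum of 10 with the deposited scale gave 132 and 25 with EICD.

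**Figure D2:**
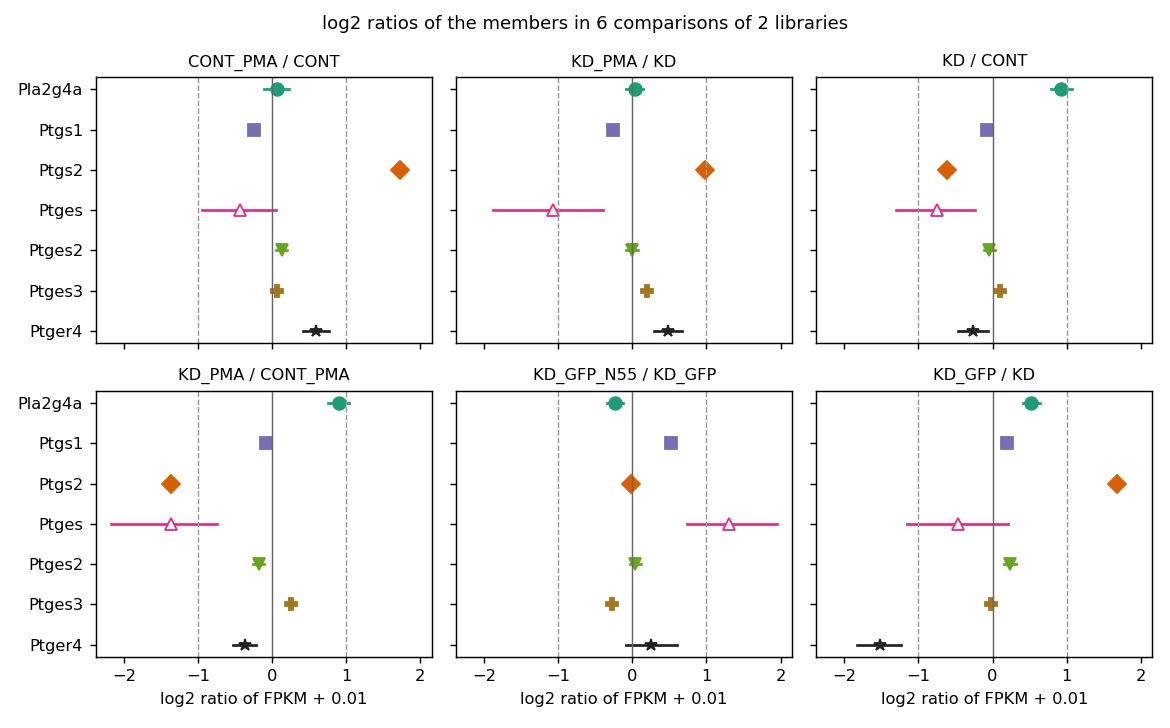
log2 ratio of FPKM + 0.01 for 7 members (rows) in the 6 comparisons of 2 libraries (panels, first library over second), with lines for the 95% counting interval, dashed lines at 2-fold and open symbols for Ptges, which was under an FPKM of 1. Ptgs2 stands at 1.72 for CONT_PMA over CONT, at 0.97 for KD_PMA over KD and at -0.02 for KD_GFP_N55 over KD_GFP. With an FPKM sum of 1000000 the Ptgs2 ratio of KD over CONT turns from -0.61 to 0.36, where the median of all loci is 1.01.

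Ptgs1 (chromosome 2, 36230426 to 36252272, plus strand) had an FPKM of 120.1 in CONT, 101.3 in CONT_PMA, 114.1 in KD, 95.5 in KD_PMA, 130.3 in KD_GFP and 187.1 in KD_GFP_N55. The EICD library was the highest and both PMA libraries were the lowest. The log2 ratio with PMA was -0.24 (-0.29 to -0.20) in 427 cells and -0.26 (-0.30 to -0.21) in the KD-labelled line. Relative to the median locus these values were -0.14 and -0.11. With EICD Ptgs1 was 1.44-fold higher, a log2 ratio of 0.52 (0.48 to 0.56), short of 2-fold, and 1446 loci had a higher ratio.

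The balance of the cyclooxygenases therefore differed between libraries. The ratio of Ptgs2 to Ptgs1 FPKM was 0.720 in CONT and 2.82 in CONT_PMA. It was 0.496 in KD and 1.16 in KD_PMA. It was 1.39 in KD_GFP and 0.955 in KD_GFP_N55. Ptgs2 was the more abundant form in CONT_PMA, KD_PMA and KD_GFP, and this ratio within a library does not depend on how libraries are scaled.

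**Figure D3:**
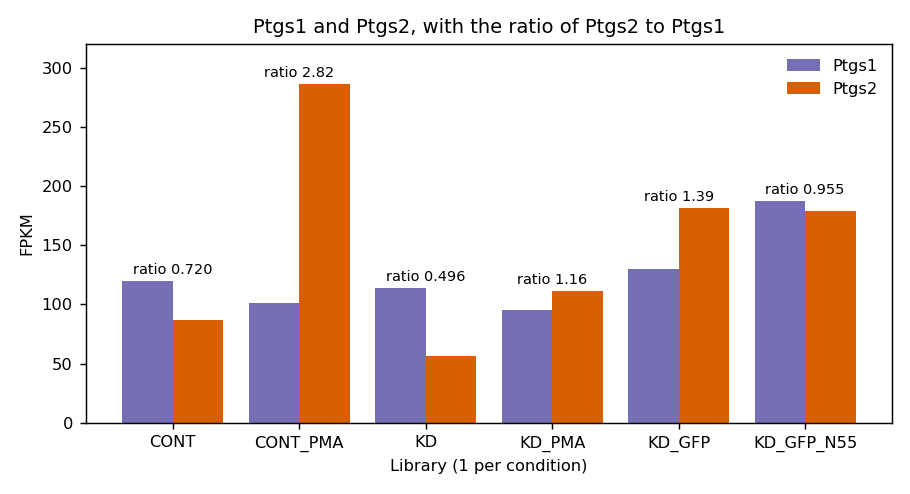
FPKM of Ptgs1 and Ptgs2 (bars, from 0) in the 6 libraries, with the ratio of Ptgs2 to Ptgs1 above each pair. The ratio is 2.82 in CONT_PMA and 0.496 in KD, and in KD_GFP_N55 it is 0.955, where Ptgs1 is at its highest, 187.1.

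Pla2g4a (chromosome 1, 149829618 to 149961290, minus strand), the enzyme that supplies arachidonic acid, differed between lines and little with PMA. Its FPKM was 6.34 in CONT and 6.62 in CONT_PMA, 12.1 in KD and 12.3 in KD_PMA, 17.4 in KD_GFP and 14.7 in KD_GFP_N55. All 4 KD-labelled libraries were above both CONT libraries. The log2 ratio of KD over CONT was 0.93 (0.78 to 1.08) with DMSO and 0.90 (0.76 to 1.04) with PMA, under 2-fold in both. With an FPKM sum of 1000000, which moved the median of all loci to 1.01 and 1.26, these ratios were 1.88 and 2.12, past 2-fold. The log2 ratio with PMA was 0.06 (-0.11 to 0.23) in 427 cells and 0.03 (-0.09 to 0.15) in the KD-labelled line. In 427 cells it was -0.19 with an FPKM sum of 1000000, where the median of all loci was -0.31.

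The terminal synthases were uneven in level. Ptges3 (chromosome 10, 128058954 to 128077272, plus strand), a cytosolic synthase also known as the Hsp90 co-chaperone p23, had an FPKM of 185.9 in CONT, 193.6 in CONT_PMA, 200.1 in KD, 230.0 in KD_PMA, 197.2 in KD_GFP and 162.9 in KD_GFP_N55. Its log2 ratio was -0.28 (-0.32 to -0.23) with EICD and 0.20 (0.16 to 0.24) with PMA in the KD-labelled line, or -0.33 and 0.34 relative to the median locus. With an FPKM sum of 1000000 the ratio of KD_PMA over CONT_PMA was 1.495, in place of 0.25, where the median of all loci was 1.26. Ptges2 (chromosome 2, 32395896 to 32405772, plus strand), a membrane-associated synthase, was at 20.7, 22.7, 20.1, 20.0, 23.7 and 24.3 in the same order of libraries. With a range of 0.28 on the log2 scale, Ptges2 varied least of the members with a level above 0.

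Ptges (chromosome 2, 30889265 to 30930259, minus strand), the inducible microsomal synthase that is often coupled to COX-2, was low. Its FPKM was 0.863 in CONT, 0.634 in CONT_PMA, 0.511 in KD, 0.239 in KD_PMA, 0.368 in KD_GFP and 0.927 in KD_GFP_N55. Both PMA libraries were thus below their DMSO partners while Ptgs2 was above them. The log2 ratio was -0.44 (-0.94 to 0.05) with PMA in 427 cells, -1.07 (-1.88 to -0.40) with PMA in the KD-labelled line and 1.31 (0.74 to 1.95) with EICD. With 1 added to both values the last 2 were -0.29 and 0.49. An estimated 90.5 fragments at most lay behind any of these values, fewer than for the other members with a level above 0. The locus in the files begins 26962 bases before the RefSeq start and takes in the annotated gene Gm13400.

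Hpgd (chromosome 8, 56294552 to 56321046, plus strand), which inactivates prostaglandin E2, was listed at 0 in every library. In the shallowest library 3 fragments would have given it an FPKM of 0.0729. That level is a chosen floor, and values of 1 fragment are listed for other loci.

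Ptger2 (chromosome 14, 44988195 to 45003820, plus strand) was likewise listed at 0 in all 6 libraries, with 3 fragments worth 0.0333. Ptger4 (chromosome 15, 5206661 to 5244187, minus strand) was at 4.68 in CONT, 7.06 in CONT_PMA, 3.91 in KD, 5.46 in KD_PMA, 1.36 in KD_GFP and 1.62 in KD_GFP_N55. Both transfected libraries were below the other 4, and each PMA library was above its DMSO partner. The log2 ratio with PMA was 0.59 (0.42 to 0.76) in 427 cells and 0.48 (0.29 to 0.69) in the KD-labelled line, both short of 2-fold, or 0.70 and 0.62 relative to the median locus. With EICD it was 0.26 (-0.09 to 0.61), an interval that holds 0.

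Between KD_GFP and KD Ptger4 was 2.87-fold lower in the former, a log2 ratio of -1.52 (-1.83 to -1.23), and -1.06 with 1 added to both values. Ptgs2 and Ptger4 thus differed in opposite directions in that comparison and in the same direction with PMA. The Ptger4 locus shares 19113 bases with an assembled locus named Prkaa1 on the opposite strand, which was at 38.02 to 50.5 FPKM. The annotated genes that overlap Ptger4 there are Ttc33 (11676 shared bases) and Gm15937 (1235), and not Prkaa1. Reads of Ttc33 may thus be counted in the value named Prkaa1, which was not tested. The library kit as named does not mark strand, so reads of the shared part cannot be assigned to one strand. The locus named Prkaa1 was at 47.6 in KD and 38.02 in KD_GFP. Likewise 312 bases of the Ptgs2 locus overlap the annotated antisense gene Ptgs2os.

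Ptger4 and Ptgs2 varied most, with ranges of 2.37 and 2.34 on the log2 scale. Their order turned with 0.1 added (2.298 and 2.334), with 1 added (1.77 and 2.32), with the same upper quartile (2.38 and 2.41) and with an FPKM sum of 1000000 (1.96 and 2.06), so that the choice of Ptger4 for the search that follows rests on the deposited scale. Among 4284 loci with a range of at least 1 and an FPKM of 1 or more in some library, the pattern most like that of Ptger4 over the 6 libraries was that of Ankrd1, with a Pearson r of 0.998. Cldn23 followed with 0.993, Bbs12 with 0.992, Zfc3h1 with 0.991 and a newly assembled locus named ZNF665 with 0.987. Ankrd1 stood at 59.5 in CONT, 85.5 in CONT_PMA, 49.9 in KD, 64.7 in KD_PMA, 23.3 in KD_GFP and 26.5 in KD_GFP_N55. The 6 points are the libraries themselves, and the correlations are the highest of a search, so they are descriptions only.

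The rest of the pathway was read from lists of genes. Slco2a1, the transporter that takes prostaglandins into cells, was at 7.71 in CONT, 22.5 in CONT_PMA, 6.59 in KD, 26.3 in KD_PMA, 6.66 in KD_GFP and 13.5 in KD_GFP_N55. Its log2 ratio was 1.54 with PMA in 427 cells and 2.00 in the KD-labelled line, and 1.02 with EICD, where other scalings gave 0.83 to 1.00. It was the 1 gene of 4 tested for degradation and transport that passed 2-fold in each of these comparisons, where 9.44%, 10.2% and 4.76% of all loci did, whereas Abcc4, an exporter, and Ptgr2, a reductase, did not. Of 22 genes of phospholipases A2 and arachidonate supply, 10 reached an FPKM of 1 in some library. Acsl4, Lpcat3 and Mboat7, which place arachidonate in phospholipids, had the highest means, at 45.2, 36.9 and 28.2. Pla2g16 alone passed 2-fold, 1 of 9 tested with PMA in the KD-labelled line where 10.2% of all loci did, with a log2 ratio of -1.10 there and of -0.98 in 427 cells. Centred on the median the former was -0.96, and with 1 added -0.86. Among 7 other receptors Ptger1, the EP1 receptor, alone reached 1, at 12.7 in CONT, 8.95 in CONT_PMA, 8.87 in KD, 6.14 in KD_PMA, 9.41 in KD_GFP and 13.4 in KD_GFP_N55, so that it was above Ptger4 in each library. The next by mean, Ptgdr2 and Ptgfr, were at 0.0531 and 0.0490.

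Of 7 other synthases and reductases, Akr1b3 had the highest mean, 226.6. Ptgds, a prostaglandin D synthase, was at 1.09 in KD and at or below 0.479 in the others, with log2 ratios of -1.17 for KD_PMA over KD, 1.41 for KD over CONT and -2.81 for KD_GFP over KD. It reached the minimum through KD alone, so that these ratios had to be large and are given as values only. Hpgds, the other prostaglandin D synthase, reached 1.66 in KD_GFP_N55 and 0.874 in KD_GFP. Of 13 lipoxygenase and leukotriene genes 3 reached 1. Lta4h, which makes leukotriene B4, was at 45.7 to 65.4 and passed in no comparison. Aloxe3, an epidermal lipoxygenase, passed with PMA in 427 cells (1.56), with EICD (1.32), in KD_PMA over CONT_PMA (-1.95) and in KD_GFP over KD (2.42). In that order 2, 3, 2 and 3 genes of this list were tested, where 9.44%, 4.76%, 5.83% and 9.15% of all loci passed. Outside the EICD comparison Aloxe3 reached the minimum through 1 library, CONT_PMA (1.39) or KD_GFP (1.06). Those ratios are therefore given as values only. Ltb4r1, a leukotriene B4 receptor, reached 1 in KD_GFP alone, with a log2 ratio of 2.48 over KD.

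Among 27 genes of cAMP signalling, which acts downstream of EP2 and EP4, 15 were tested with PMA. Past 2-fold were 1 higher and 1 lower in 427 cells and 1 lower in the KD-labelled line, where 9.44% and 10.2% of all loci passed. Of 15 tested between the lines, 1 higher and 1 lower passed with DMSO and 1 lower with PMA, beside 7.05% and 5.83% of loci. In KD_GFP over KD 2 of 15 passed, beside 9.15%, and with EICD 1 of 16, beside 4.76%. Adcy9, an adenylyl cyclase, had log2 ratios of -1.43 in 427 cells and -1.01 in the KD-labelled line, the latter short of 2-fold under every other scaling and added amount tried. Pde4d, a phosphodiesterase that breaks down cAMP, was past 2-fold in 427 cells at 1.11 and at 0.42 in the KD-labelled line. Pde4b was lower in KD than in CONT (-1.13) and in KD_PMA than in CONT_PMA (-1.32), and higher in KD_GFP than in KD (1.14). Crem was higher in KD than in CONT (1.15), Rapgef3 was higher in KD_GFP than in KD (1.07), and Pde4a, which reached 1 in KD_GFP_N55 alone, had a log2 ratio of 1.73 with EICD. Gnas, Prkar1a and Prkaca, with means of 278.3, 170.1 and 89.2, passed in no comparison, and the Prkaca value is from a newly assembled locus. Of the 21 ratios of list genes past 2-fold, 3 stayed past it with 1 added, those of Slco2a1 with PMA in both lines and that of Rapgef3. Aloxe3 in KD_GFP over KD was then at 0.79, Ltb4r1 at 0.81, Ptgds at -0.87 and Pde4a with EICD at 0.71. With 1 added, the share of all loci past 2-fold was 2.13% to 5.83% over the comparisons, in place of 4.76% to 10.2%. Of the 21 ratios, 20 stayed past 2-fold with 0.1 added and 19 with the same upper quartile. Centred on the median 18 did. With an FPKM sum of 1000000, 3 stayed past 2-fold and met the minimum of 1. Under that scaling some others kept a ratio past 2-fold but lay under the minimum, such as Crem in KD over CONT (2.07) and Ltb4r1 in KD_GFP over KD (2.22). Others fell short of 2-fold, such as Pde4d with PMA in 427 cells (0.83) and Slco2a1 with EICD (0.83). With an FPKM sum of 1000000, Pde4b was at -0.16 with DMSO and -0.07 with PMA between the lines. The medians of all loci were then 1.01 and 1.26, so that Pde4b was below both.

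**Figure D4:**
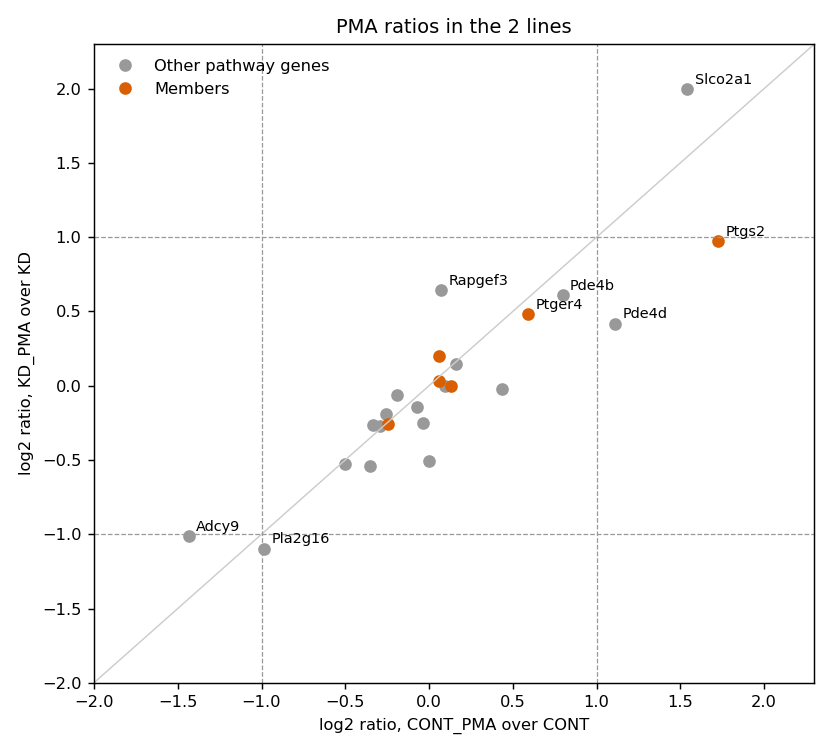
log2 ratio with PMA in 427 cells (x axis, CONT_PMA over CONT) against that in the KD-labelled line (y axis, KD_PMA over KD) for 6 members and 18 other pathway genes, with dashed lines at 2-fold and a line where both are equal. Ptgs2 lies at 1.72 and 0.97, below the line of equal ratios, and Slco2a1 at 1.54 and 2.00, above it.

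The members' median log2 ratio was 0.10 with PMA in 427 cells and 0.11 in the KD-labelled line, beside -0.12 and -0.15 over all loci tested. For KD over CONT it was -0.06 with DMSO and -0.13 with PMA, beside 0.05 and 0.02. It was 0.01 with EICD, beside 0.07, and 0.21 for KD_GFP over KD, beside -0.08.

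The longest annotated 3′ untranslated part of each gene was also searched for ATTTA, the core of AU-rich elements, which are known to shorten the life of many induced mRNAs. Ptgs2 held 14 copies in 2448 bases, and 2.95% of 21849 genes held as many or more, where the median length was 1035 bases. Ptgs1 and Ptges held 0, Ptger4 5, Ptger2 6, and Pla2g4a, Ptges2, Ptges3 and Hpgd 4 each, against a median of 1 over all genes. Per kilobase Pla2g4a was highest at 8.97, in 446 bases, above Ptgs2 at 5.72. The other members were at 0 to 4.76 per kilobase, and the median over all genes was 1.09. A copy is a match of letters, and decay was not measured.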

How the data were processed

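RNA of 6 libraries, 1 per condition, was sequenced by the authors from paired ends. Per the submitters' processing notes the tools were STAR 2.4.0b, TopHat2 2.1.1, Cufflinks 2.1.1 and Cuffdiff 2.1.1, on GRCm38, and the authors deposited FPKM for 25001 loci. FPKM depends on the assembled models, and the only fragment counts used here were estimates made from FPKM. From the deposited values, log2 ratios were computed after adding 0.01 to both (pandas 2.3.3 and NumPy 2.4.6 under Python 3.11.15, exact intervals from SciPy 1.17.1, plots from matplotlib 3.10.9). A locus entered a comparison where either library reached an FPKM of 1, and was called past 2-fold. Depth was estimated from the lowest values of genes with a single transcript over 2500 bases, and fragments per gene, from the longest transcript, are upper estimates. The intervals were computed from these fragments and may therefore be too narrow. The depth and ratio steps were run on simulated Poisson counts. The same transcript lengths made and read those counts, so the run did not test the assembled models or the spread between cultures.

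Groups came from the sample labels. The members and lists were chosen with earlier results of these data known. Named are all members, list genes past 2-fold in any comparison, the 3 highest of each list by mean, and the 5 loci most like the member of widest range. The rule asked for the promoter of Ptgs2 alone, and the other members' were searched in addition. Pla2g4b and Icer had no locus of that name, and proteins were not used here. Alternatives were other added amounts, minima, scalings, rows per symbol and a 1.5-fold threshold. For the list genes, the ranges of the members and the signs of the PMA ratios these were added after seeing the data.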

Additional observations from a re-analysis of the deposited data

Results flagged for a closer look

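In 3 genes that reached an FPKM of 1 with DMSO or PMA in both lines, the log2 ratio with PMA had opposite signs in the 2 lines, and none of these differences was tested, since each condition has 1 library. Relative to the median locus, the ratios of all 3 were positive in both lines, so that the opposite signs rest on the deposited scale. For Ptges2, the KD-labelled line minus 427 cells gave -0.13, from 0.13 and -0.00, or 0.24 and 0.14 relative to the median. For Prkar1a, a regulatory subunit of protein kinase A, the difference was -0.10, from 0.10 and -0.01, or 0.20 and 0.14 relative to the median. For Crem, a cAMP-responsive transcription factor, it was -0.46, from 0.44 and -0.03, or 0.54 and 0.12 relative to the median.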

How the results depend on the processing

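No paired analysis was possible because each condition has 1 library. Of 60 counts of members past 2-fold under the alternatives, 43 were within 1.5 times the reported count and 17 were not. Summing the rows of a symbol, among these alternatives, could change no count or ratio, because each member had 1 row. Its unchanged values are part of the 43 here and of the 196 below. Without a minimum FPKM, and with a minimum of 0.1, Ptges entered, giving 1 member with PMA in the KD-labelled line, 2 in KD_PMA over CONT_PMA and 1 with EICD, where 25.4%, 22.5% and 21.2% of all loci were past 2-fold without a minimum and 20.1%, 16.6% and 14.4% with 0.1. A minimum of 10 left 1 in KD_GFP over KD, where 4.16% of all loci passed. The same upper quartile, centring on the median and an FPKM sum of 1000000 each gave 1, Ptgs2, with PMA in the KD-labelled line. There 9.45%, 9.43% and 6.18% of all loci passed. The sum scaling also gave 2 in KD over CONT and 4, without Ptgs2, in KD_PMA over CONT_PMA, while it called 52.3% and 83.6% of loci there. The sum scaling left 1 in KD_GFP over KD, where 4.73% of all loci passed, since Ptger4, at a log2 ratio of -1.46, then lay under the minimum of 1. At 1.5-fold there were 2 members with PMA in 427 cells, 1 in the KD-labelled line, and 2 between the lines with DMSO and 2 with PMA, where 23.6%, 25.5%, 16.2% and 13.8% of all loci passed. Of the log2 ratios of single members, each counted anew under each alternative, 196 moved by less than the counting interval and 56 by more. No called ratio changed sign. A change of sign was seen 19 times in ratios short of 2-fold or under the minimum, some of them the same ratio under several alternatives. The difference of the PMA ratios of Ptgs2 ran from -0.75 to -0.47. Without replicates the spread between cultures is unknown, and depth limits Ptges, Hpgd and Ptger2 most.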
